A study of Mus musculus with 2 samples.

Results

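The ligands described here are surface proteins with which a B cell promotes or restrains a T cell that recognises its antigen. They are the products of 9 genes, Cd80, Cd83, Cd86, Icosl, Cd274, Pdcd1lg2, Tnfsf4, Tnfsf9 and Cd70, found by gene name among the non-control rows of both arrays, which held 12 probes for them. Of the 9 genes, 7 had a probe bright enough to be tested, out of 17687 genes tested in all. The RNA was that of B cells sorted from peripheral lymph nodes and not cultured. Wild-type mice were C57BL/6J. Knock-out mice were of the strain B6.129P2(C)-Ccr7tm1Rfor/J and lack the chemokine receptor gene Ccr7 in every cell, not in B cells alone. Animal age, sex and sorting markers are not stated in the labels. Of 12 RNA samples, 6 per genotype, 3 went into each pool, so that either genotype was represented by 2 pools. One pool of each was hybridized together on each of 2 arrays with Cy3 and Cy5, and the knock-out carried Cy5 on array 1 and Cy3 on array 2. The array is the unit of replication (n = 2).

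A naive T cell needs a signal through its antigen receptor and further signals from the presenting cell. Cd80 and Cd86 costimulate through Cd28 and inhibit through Ctla4, and Icosl acts through Icos, a receptor of follicular helper T cells. Tnfsf4, Tnfsf9 and Cd70 belong to the tumour necrosis factor family and engage Tnfrsf4, Tnfrsf9 and Cd27 on T cells. Cd274 and Pdcd1lg2 are the ligands of the inhibitory receptor Pdcd1. Cd83 is an immunoglobulin-family protein of activated B cells and dendritic cells that keeps MHC class II and Cd86 on the cell surface by opposing the ubiquitin ligase Marchf1. Resting B cells carry little Cd80 or Cd86 and gain both, with Cd83, upon activation.

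The values rest on array probes of 60 bases, of which the first 30 are shown as the scanner files hold them, 5′ to 3′ in lower case. They are shown for Cd83, whose ratio was the largest of the ligands, for both Pdcd1 ligands, and for Cd86 and Icosl, where 2 separate probes read the same gene.
Cd83: agctattgcgccacgacaggaggaagttct
Cd274: ttgatgagtctcatgttaatgtcttgtttg
Pdcd1lg2: gagttggaaggatctgatgggaaaccctca
Cd86, brighter probe: caagagtttccatctcctcaaacgtattgg
Cd86, dimmer probe: ccaggagacatcactagaatccaaccaaca
Icosl, brighter probe: tagatggggcatagtgacttctagaaacct
Icosl, dimmer probe: tttcaacttgagtggtctgtatgtctattg
On the mm8 build named in the file headers, the Cd83 probe lies at chr13:43813879-43813938 on the plus strand. The Cd274 and Pdcd1lg2 probes lie at chr19:29453870-29453929 and chr19:29536533-29536592, 82.6 kb apart on the plus strand, so both Pdcd1 ligands are close neighbours in the genome. The brighter Cd86 probe lies at chr16:36534534-36534593 on the minus strand, 10.8 kb from the dimmer one at chr16:36523659-36523718. The brighter Icosl probe lies at chr10:77482595-77482654 on the plus strand, 7.59 kb from the dimmer one at chr10:77474943-77475002. The Tnfsf9 probe (chr17:56792441-56792500, plus strand) and the Cd70 probe (chr17:56834970-56835029, minus strand) are 42.5 kb apart. The Tnfsf4 probe lies at chr1:163254641-163254699, and the Cd80 probes lie at chr16:38414847-38414907 and chr16:38393393-38393452. Whether a probe lies in coding or untranslated sequence was not analysed here.

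The study compared the transcript profile of lymph node B cells between the genotypes. In the main fit the estimated Cd83 ratio was 2.00-fold in favour of the knock-out, which limma did not call (adjusted p 0.214 over all genes). Its size, and its sign on array 2, depended on the normalization, as given below. Every other tested ligand had a mean difference of at most 0.14 in size on the log2 scale. None of the 7 tested ligands was past the threshold of an adjusted p of 0.05 in limma's test. The share of all genes past it was 0.102% (0.0678% higher and 0.0339% lower in the knock-out). At an unadjusted p of 0.05, 1 of the 7 passed, Cd83, against 9.13% of all genes. Of the 7, 2 were higher on both arrays (Cd83 and Tnfsf9), 1 was lower on both (Cd70) and 4 had opposite signs, where 24.2%, 30% and 45.8% of all genes did. Cd70 passed the filter on dim probes through the wild-type pools only, which favours a lower value in the knock-out. The median log2 ratio of the 7 was -0.01 and that of all genes -0.0078.

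**Figure D1:**
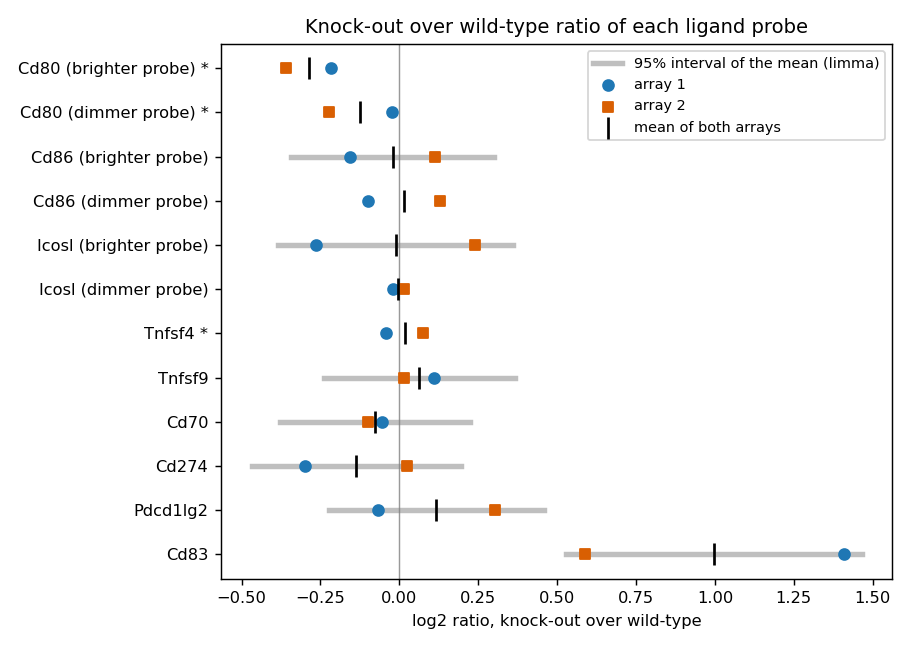
Log2 ratio between knock-out and wild-type (x axis, above 0 where the knock-out is higher) for each of the 12 ligand probes (y axis), with array 1 as circles, array 2 as squares and their mean as a black bar. Grey bars are the 95% intervals of limma's gene fit for the probe that stands for its gene, and an asterisk marks a probe too dim to be tested; of the 7 intervals, that of Cd83, from 0.53 to 1.47, leaves out 0.

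The normalized log2 level of Cd83 was 15.18 in the wild-type and 16.59 in the knock-out pool of array 1, and 15.90 and 16.49 in those of array 2. Both knock-out pools lay above both wild-type pools, as they did for 9.57% of all genes. The log2 ratio of Cd83 was 1.41 on array 1 and 0.59 on array 2, and the mean was 1.00 ± 0.20 (SE, n = 2). This SE, like the others given here, is from limma's fit and draws mostly on the variance of all genes tested. The 95% interval of Cd83 from 0.53 to 1.47 corresponds to 1.44-fold to 2.76-fold. The unadjusted limma p was 0.00144. By its mean ratio Cd83 stood at place 17 from the top of the 17687 genes. As a fold, the ratio was 2.65 on array 1 and 1.5 on array 2, so with this normalization the arrays share the direction and differ in the size.

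Before normalization the Cd83 spot followed the dye. Its intensity was 35706 in the wild-type (Cy3) and 132563 in the knock-out (Cy5) on array 1. On array 2 it was 95457 in the wild-type (Cy5) and 50226 in the knock-out (Cy3). The Cy5 spot was the brighter one on both arrays, and the ratio above is what the intensity-dependent dye correction (loess) of each array left. Cd83 was among 1628 tested genes for which the scanner program had rescaled a channel of a very bright spot from its second scan at low gain. Of these, 97 had a log2 ratio of at least 1 on array 1, and 90 of the 97 were below 0 on array 2, with a median of -1.01 there. Cd83 was 1 of the 7 above 0 on array 2. The very bright B-cell genes Ms4a1 (1.75 and -1.23) and Cd79b (1.45 and -1.52), named after their values were seen, were among the 90. The part of dye and scanner gain in the size of the Cd83 ratio was not tested.

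**Figure D2:**
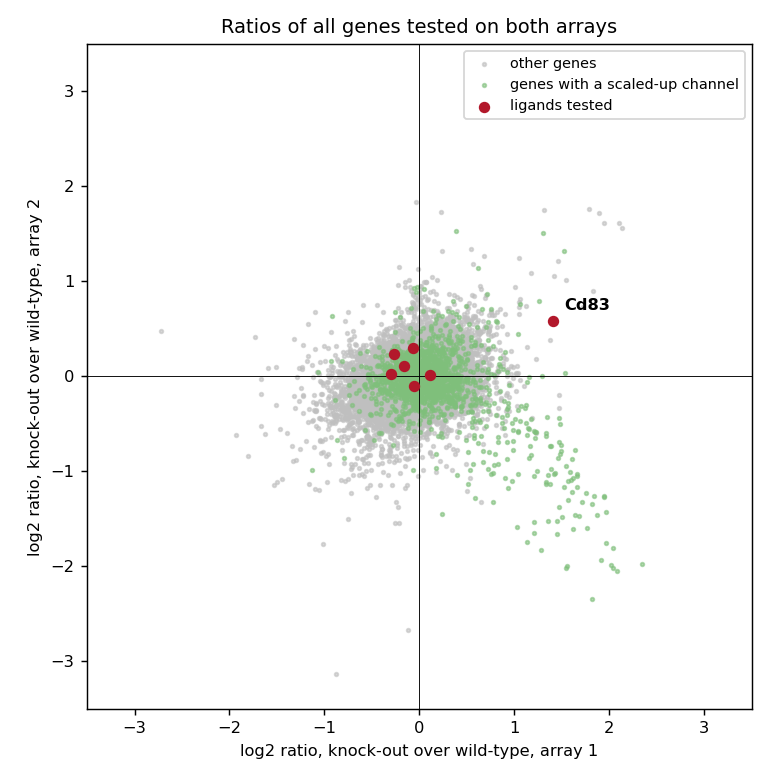
Log2 ratio between knock-out and wild-type on array 1 (x axis) against array 2 (y axis) for all 17687 genes tested, with genes that have a rescaled channel in green and the 7 tested ligands in red. Cd83, at 1.41 and 0.59, lies in the upper right, the other 6 ligands lie near the origin, and 90 green genes reach at least 1 on array 1 and lie below 0 on array 2.

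The Cd83 ratio was set against other ways to normalize the same spots. The scanner program's own log ratio gave 1.00 and 0.86 (mean 0.93, limma adjusted p 0.313). In the authors' deposited table the values were 0.76 and 0.81 (mean 0.78, limma adjusted p 0.297), which are nearly equal. That table departs from the scanner's ratio at 867 spots of array 1 and 864 of array 2, all of them rescaled spots, and Cd83 is among them on both arrays. With median centring, which takes no account of intensity, array 1 gave 1.85 and array 2 gave -0.45. In that setting the median of all tested genes was 0.07 on array 1 and -0.47 on array 2, so that Cd83 lay 1.79 above the median on the first and 0.02 above it on the other. Cd83 was thus above 0 on both arrays in 4 of the 6 ways plotted, and at the median of all genes on array 2 with median centring and with no dye correction.

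**Figure D3:**
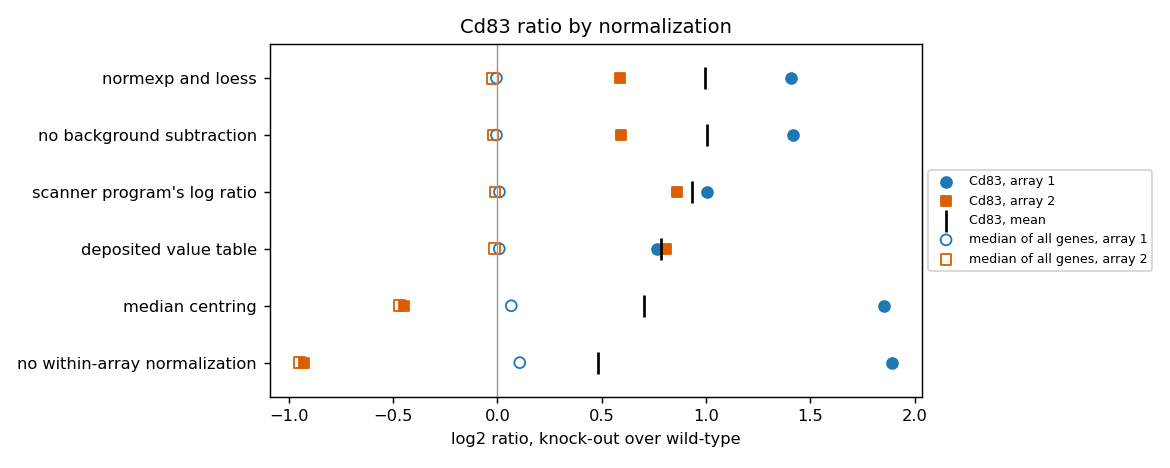
Log2 ratio of Cd83 between knock-out and wild-type (x axis) under 6 ways to make the ratio (y axis), with array 1 as filled circles, array 2 as filled squares, the mean as a black bar, and the median of all tested genes on each array as open symbols. Both filled symbols lie to the right of 0 in the upper 4, while in the lower 2 the filled square lies below 0, beside the open one.

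Among the Cd28 ligands, Cd86 was measured by 2 probes, both with means near 0. The brighter probe had log2 levels of 9.76 in the wild-type and 9.60 in the knock-out on array 1, and 9.98 and 10.10 on array 2. The genotypes overlapped, and the ratio changed sign between arrays, from -0.16 to 0.11. The mean for Cd86 was -0.02 ± 0.14 (SE, n = 2; limma adjusted p 0.99), with a 95% interval from -0.34 to 0.30. The dimmer Cd86 probe gave -0.10 and 0.13, with a mean of 0.015 and a 95% interval from -0.30 to 0.33 in the fit over all probes.

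Cd80, the other Cd28 ligand, was close to background. Its brighter probe was well above background in only 1 of the 4 pools, the wild-type pool of array 2, and its other probe in none. The intensity of the brighter probe was 116 in the wild-type and 91.7 in the knock-out on array 1, and 107 and 93.6 on array 2. The 153 negative control spots had medians of 86.1, 74.9, 76.1 and 91.3 in the same order, with 95th percentiles of 94.2, 81.2, 80.3 and 96.5, so the knock-out spot of array 2 was under the 95th percentile of the negative controls. Both wild-type levels of Cd80 (6.52 and 6.62, log2) were above both knock-out levels (6.31 and 6.26), as for 13.3% of all genes tested. The log2 ratios were -0.22 and -0.36, and -0.02 and -0.22 for the other probe. Neither Cd80 probe entered the test. With no filter on dim probes the limma adjusted p of Cd80 was 0.584.

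Icosl was read by a bright probe and by a dimmer one. The bright probe had log2 levels of 14.99 in the wild-type and 14.72 in the knock-out on array 1, and 14.70 and 14.94 on array 2. The wild-type pool was higher on array 1 and the knock-out pool on array 2, so the ratio turned from -0.27 to 0.24. Its mean was -0.01 ± 0.16 (SE, n = 2; limma adjusted p 0.995), with a 95% interval from -0.39 to 0.36. Like the Cd83 probe, it had a rescaled channel on both arrays. The dimmer Icosl probe, with no rescaled channel, had levels of 9.11 and 9.09 on array 1 and 8.58 and 8.59 on array 2, in the order wild-type and knock-out. Its ratios of -0.02 and 0.01 were the closest pair of values among the 12 probes, with a 95% interval from -0.31 to 0.30 in the fit over all probes. Both Icosl probes thus had means near 0, and the spread between arrays was larger for the bright probe.

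**Figure D4:**
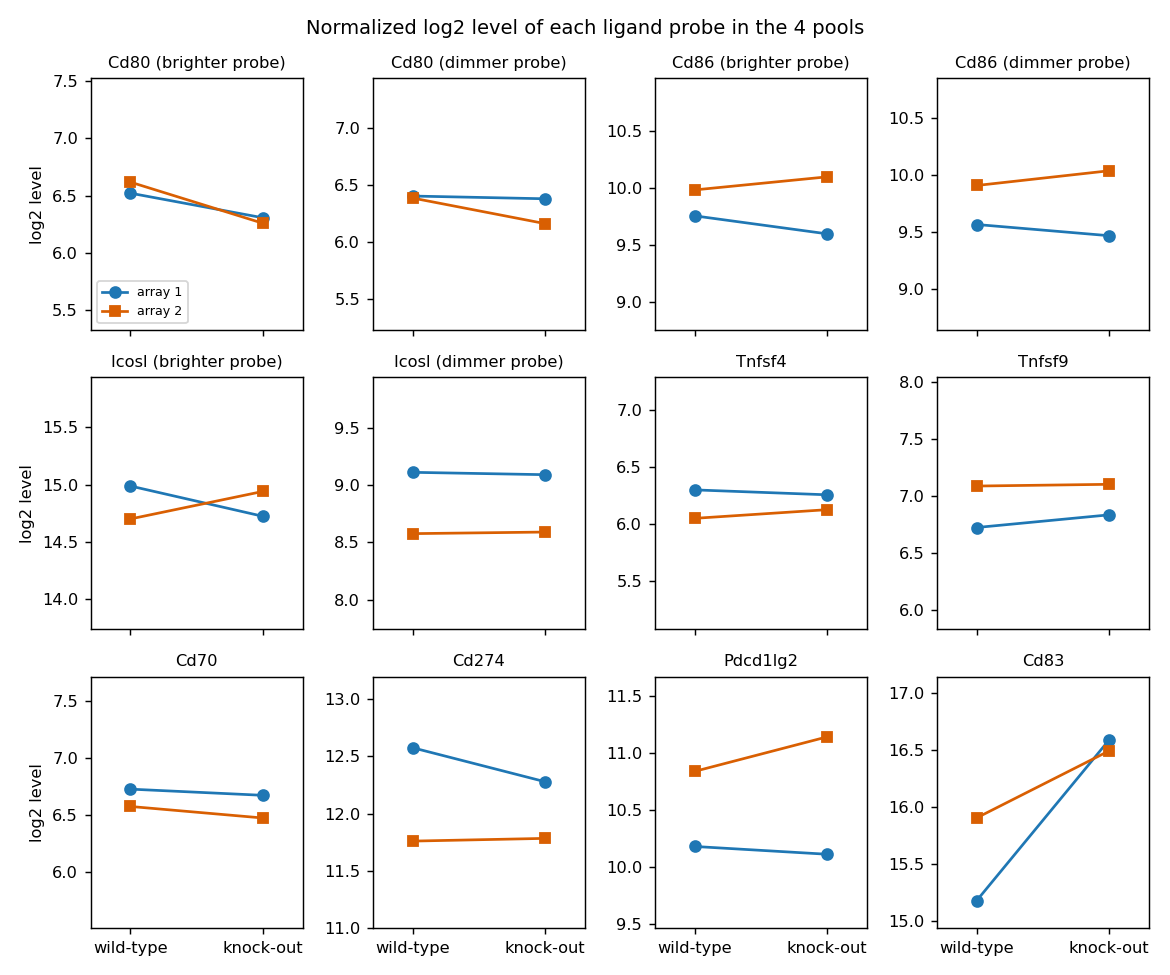
Normalized log2 level (y axis, the same span in every panel, set around the panel's own middle) of each of the 12 ligand probes in the wild-type and knock-out pools (x axis), with a line per array (array 1 as circles, array 2 as squares). Both lines rise for Cd83, by 1.41 on array 1 and 0.59 on array 2. For Cd86, Tnfsf9 and the dimmer Icosl probe the lines lie apart and run nearly level. Those of Cd274 and Pdcd1lg2 also lie apart, with a ratio of -0.30 for Cd274 on array 1 and of 0.30 for Pdcd1lg2 on array 2. Levels cannot be compared between panels, since probes differ in brightness.

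The tumour necrosis factor family ligands lay at or a little above background in both genotypes. Tnfsf9, the ligand of Tnfrsf9, was above background in all 4 pools, with log2 levels of 6.73 and 6.84 in the wild-type and knock-out of array 1, and 7.09 and 7.10 on array 2. Its ratios were 0.11 and 0.02 (mean 0.06 ± 0.13 SE, n = 2; limma adjusted p 0.967), with a 95% interval from -0.24 to 0.37. Cd70, the ligand of Cd27, was above background in both wild-type pools and in the knock-out pool of array 1. Its levels were 6.73 and 6.67 on array 1 and 6.57 and 6.47 on array 2, and its ratios -0.05 and -0.10 (mean -0.08 ± 0.13 SE, n = 2; limma adjusted p 0.954), with a 95% interval from -0.38 to 0.22. With the scanner program's log ratio the means moved to 0.21 for Tnfsf9 (limma adjusted p 0.798) and -0.35 for Cd70 (limma adjusted p 0.709), and they were the same in the authors' deposited table. Tnfsf4 was not well above background in any pool, with intensities of 92.9 and 81.9 in the wild-type and knock-out of array 1, and 75.9 and 89.7 on array 2. On array 1 both Tnfsf4 values were above the medians of the negative control spots, and on array 2 both were below them.

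The Pdcd1 ligands differed more between arrays than between genotypes, as did Cd86, Tnfsf9 and the dimmer Icosl probe, among others. Cd274 had log2 levels of 12.58 in the wild-type and 12.28 in the knock-out on array 1, and 11.76 and 11.78 on array 2. Both pools of array 1 were above both pools of array 2, and the mean level of array 2 minus that of array 1 was -0.66. The Cd274 ratios were -0.30 and 0.02 (mean -0.14 ± 0.14 SE, n = 2; limma adjusted p 0.884), with a 95% interval from -0.47 to 0.19. Pdcd1lg2 had 10.18 and 10.11 on array 1, and 10.84 and 11.14 on array 2, so its levels were higher on array 2, by 0.84 on average. The Pdcd1lg2 ratios were -0.07 and 0.30 (mean 0.12 ± 0.14 SE, n = 2; limma adjusted p 0.915), with a 95% interval from -0.22 to 0.46. Of all genes tested, 92.2% had a smaller difference between the arrays than Cd274 and 95.8% a smaller one than Pdcd1lg2. The arrays held different pools of mice, so a difference between pools and one between hybridizations cannot be told apart.

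With every probe as a row, 0 of the 9 ligand probes tested passed limma's threshold, where 0.119% of 25975 probes did. The Cd83 probe had a limma adjusted p of 0.182 in that fit.

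Of the 7 T-cell receptors of these ligands, 4 were tested, and Cd28 and Ctla4 were not above background in any pool by any probe. Limma called 0 of the 4, also 0 at an unadjusted p of 0.05, and their median log2 ratio was -0.12. Of them, 3 were lower on both arrays, where 30% of all genes were, and 1 of the 3, Pdcd1, passed the filter through the wild-type pools only. Tnfrsf4, the receptor of Tnfsf4, had the most negative ratio, with -0.22 and -0.30 (mean -0.26 ± 0.13 SE, n = 2; limma adjusted p 0.614). It was the brightest of the 4, with wild-type log2 levels of 11.43 and 11.20, where Cd27 had 6.99 and 7.04. Which cells gave the Tnfrsf4 signal was not tested. Cd27, the receptor of Cd70, had -0.06 and -0.25 (mean -0.16). Fewer cells of a type and less RNA per cell cannot be told apart in these bulk samples.

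Of 22 other genes for ligands and receptors of T-cell help, 18 were tested and limma called 0. At an unadjusted p of 0.05, 1 was higher and 2 were lower, where 3.15% and 5.97% of all genes were. Cd244a, a receptor for Cd48, had -0.49 and -0.56 (mean -0.53 ± 0.13 SE, n = 2; limma adjusted p 0.275), and its second probe above background gave -0.23. Ly9, a receptor of the Slam family, had -0.14 and -0.87 (mean -0.50; limma adjusted p 0.476). Cd40, through which T cells induce several of the ligands, had -0.10 and 0.41.

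Of 22 B-cell activation markers 21 were tested and limma called 0, with 3 higher and 1 lower at an unadjusted p of 0.05 (3.15% and 5.97% of all genes). On both arrays 6 were higher and 7 lower (24.2% and 30% of all genes), and their median log2 ratio was 0.03. Fas, a death receptor gained on activation, had 0.72 and 0.47 (mean 0.60 ± 0.14 SE, n = 2; limma adjusted p 0.244), while its dimmer probe gave 0.02. The kinase gene Pim1 had -0.69 and -0.42 (mean -0.55 ± 0.14 SE, n = 2; limma adjusted p 0.275), while its dimmer probe gave 0.01.

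Among 15 factors known to induce the ligands or to remove them from the surface, limma called 0, with 2 higher and 2 lower at an unadjusted p of 0.05 (3.15% and 5.97% of all genes). Rel, an NF-kB subunit, had -1.03 and -0.45 (mean -0.74 ± 0.17 SE, n = 2; limma adjusted p 0.244). Marchf1, the ligase that Cd83 opposes, had 0.15 and 0.03 (mean 0.09).

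Marker lists of B cells and of other cells were set beside the ligands. All 10 B-cell markers were well above background in both genotypes on both arrays. Limma called 0 of them, with 2 lower at an unadjusted p of 0.05 (5.97% of all genes), Pax5 (-0.82; limma adjusted p 0.141) and Fcrla (-0.31; limma adjusted p 0.541), while a dimmer Pax5 probe gave 0.01. Dendritic cells carry Cd83, Cd86 and Pdcd1lg2. Of 12 dendritic cell markers 7 were tested, and their mean log2 level was 7.36 and 7.54 in the wild-type pools and 7.37 and 7.57 in the knock-out pools. Limma called 0 of the 7, also 0 at an unadjusted p of 0.05. Clec9a, Siglech, Ccl22 and Cd207 were not above background in any pool, and the tested markers with the largest mean ratios were Xcr1 (0.22) and Ccl17 (-0.12). The 11 T-cell markers tested had mean levels of 8.30 and 8.32 in the wild-type and 8.13 and 8.08 in the knock-out pools. Limma called 0 of them, with 5 lower at an unadjusted p of 0.05 (5.97% of all genes), led by Thy1 (-0.78; limma adjusted p 0.164) and Cd3d (-0.60; limma adjusted p 0.24), and Cd247 was not above background. Of the 5, Il7r and Tcf7 passed the filter through the wild-type pools only, so their direction is partly set by it. Cd3e (0.03), Cd3g (0.01) and Cd4 (-0.03) had mean ratios near 0. Cd8b1 had 0.18 by its brighter probe and -1.47 by a dimmer one, both above background in both genotypes on both arrays. The 7 macrophage and monocyte markers tested had mean levels of 8.31 and 8.56 in the wild-type and 8.68 and 8.17 in the knock-out. Adgre1 had -0.29 and -1.14 (mean -0.71; limma adjusted p 0.347). S100a9, which also passed through the wild-type only, had 0.92 and 0.00031 (mean 0.46; limma adjusted p 0.586), so its mean came from array 1. C5ar1 and Ccr2 were not above background. The 4 natural killer cell markers tested had levels of 7.61 and 7.40 against 7.56 and 7.22, with mean ratios of -0.57 for Klrd1 and 0.37 for Prf1. Limma called 0 of the 4, with 1 higher and 1 lower at an unadjusted p of 0.05 (3.15% and 5.97% of all genes). Ncr1, Eomes and Gzma were not above background in any pool. Of 6 plasma cell genes tested limma called 1, Jchain (1.81 ± 0.13 SE, n = 2; adjusted p 0.0179), where 0.102% of all genes were called. Of the 6, 3 were higher and 2 lower on both arrays (24.2% and 30% of all genes). Xbp1 had 0.55 and 0.85 (mean 0.70), and Sdc1 had -0.13 and -1.15 (mean -0.64), mostly from array 2. The median log2 ratio of the 6 was -0.02. The part of other cells in the ligand values was not tested.

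The targeted gene Ccr7 had log2 levels of 12.55 and 12.40 in the wild-type and 11.44 and 11.66 in the knock-out pools, a mean ratio of -0.93 ± 0.15 (SE, n = 2; limma adjusted p 0.143). Whether its probe lies within the deleted part was not analysed here. Between 58.4% and 68.8% of spots were well above background per channel, and 0 spots were saturated. With 2 arrays the precision is limited. The standard errors and intervals are those of limma's eBayes fit (residual df 1, prior df 6.18), which draw mostly on the variance of all genes tested. They thus do not measure a gene's own spread between the arrays, nor the spread between single mice.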

How the data were processed

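Both arrays were read with Agilent Feature Extraction 9.5.3.1 by the authors, per the submitters' processing notes. Per the file headers, this gave mean and local background intensity for each spot and a dye-normalized log10 ratio of Cy5 over Cy3. The deposited value table holds log2 ratios, which match that ratio (knock-out relative to wild-type) within 0.001 at 42512 and 42515 of 43379 spots. How the other values of that table arose is unknown here. Each of its columns has a median of 0.

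From the intensities, background was corrected by normexp (offset 50, which shrinks ratios of dim probes), then dye bias by loess (span 0.3, 4 iterations; the 1639 control spots had no weight), with limma 3.58.1 in R 4.3.3. Outlier spots were left out. Probes were kept where 1 genotype was well above background on both arrays, and the brightest kept probe stood for its gene. Levels are single channels after Aquantile scaling. The fit used lmFit and eBayes (residual df 1, prior df 6.18), with two-sided tests and Benjamini-Hochberg adjustment across the 17687 genes. The fit was tested on simulated data. Of 41174 distinct probes, 24375 were named from RefSeq's GRCm38 table by accession, 6301 by symbol and 2422 by synonym, and 8076 kept the name in the scanner files.

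Members and lists were chosen with earlier results of these data known. Named were every ligand, Ccr7, and from each list the called genes or else the 2 with the largest mean ratio. Also named were list members not above background and, outside that rule, Cd40, Marchf1, Ms4a1, Cd79b, Pdcd1, Il7r and Tcf7. The same holds for Cd3e, Cd3g, Cd4, Cd8b1, Lck, Xbp1 and Sdc1. Not every gene so chosen is reported here. Alternatives covered background correction, normalization, filters, probe choice, the prior, separate channels and single arrays.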

Additional observations from a re-analysis of the deposited data

How the results depend on the processing

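With limma, 0 ligands and 0 genes of the 4 partner lists were called in each of the 11 other settings with a test. The mean of Cd83 stayed positive in the 10 that hold its probe, from 0.48 (no within-array normalization) to 1.00. Limma's adjusted p ran from 0.195 to 1.00. Settings that changed only the filter, the probe choice, the prior or the use of channels kept the main ratios of Cd83, so its sign was fixed there. On array 2 the Cd83 ratio was -0.45 under median centring and -0.93 without within-array normalization. Without scaled-up probes Cd83 could not be tested, and with 1 array left out it was 0.59 to 1.41. Ligands near 0 turned sign. Cd86 was 0.0086 with the deposited value table and likewise with the scanner's log ratio. Cd70 was 0.075 and Pdcd1lg2 -0.17 under median centring, where the median of all genes was -0.17. Leaving out within-array normalization gave -0.38 for Pdcd1lg2 and -0.14 for Tnfsf9, where the median of all genes was -0.39. With 1 array left out, Cd274 ranged from -0.30 to 0.024, Cd86 from -0.16 to 0.11, Icosl from -0.27 to 0.24 and Pdcd1lg2 from -0.068 to 0.30.

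Over all genes, the 18 calls became 0 without background subtraction, for the scanner's log ratio, the deposited value table, unnormalized ratios, the mean of probes and separate channels (no replicate block). They became 4 under median centring, 9 where both genotypes had to exceed background, 78 with an intensity trend and robust prior and 130 without scaled-up probes. Over all probes, the 31 calls became 3 without background subtraction, 14 under median centring, 124 with the trend and robust prior and 118 without scaled-up probes. They became 0 for the scanner's log ratio, the deposited value table, unnormalized ratios and separate channels. The cause was not tested. The main fit is paired by array, since each ratio sets 1 pool of each genotype against the other. The labels give no pairing beyond the array.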
